A study of Mus musculus with 18 samples.

Results

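Endothelial cells line every vessel of the heart, and the 34 genes described here mark those cells or carry the signals by which vessels grow and mature. They were taken as a list by gene symbol and fall into 5 classes, namely 13 pan-endothelial genes, 11 genes of the VEGF and angiopoietin axis, 4 capillary genes, 4 genes of the Notch pathway and 2 lymphatic genes. All 34 were found among the 55450 gene identifiers of the count table, and all 34 were among the 16270 genes that passed the filter on low counts.

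RNA was sequenced from the left ventricle (LV) of FVB/N mice at 20 weeks of age. Gαq mice overexpress the G protein subunit Gαq from a cardiac-specific transgene, whose promoter is not named in the sources used here, and develop a dilated cardiomyopathy. Wild type (WT) animals were their littermates. From 4 weeks of age mice of both genotypes received for 16 weeks either control diet (CD) or the same chow with ertugliflozin (ERTU), an inhibitor of the kidney glucose transporter SGLT2, at 0.5 mg per g. The 4 groups were WT CD (4 libraries, numbered 1, 2, 4 and 5 in the count table), WT ERTU (5 libraries, 11, 12, 13, 14 and 15), Gαq CD (5 libraries, 6, 7, 8, 9 and 10) and Gαq ERTU (4 libraries, 16, 17, 18 and 20). The values of single libraries are given below in that order of numbers. Every group was of the same strain and age, and the comparisons address what Gαq overexpression and what ERTU changed.

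In the growth of vessels, VEGF ligands bind receptor tyrosine kinases on endothelial cells, chiefly the receptor encoded by Kdr, while neuropilins act as co-receptors and Flt1 also acts as a decoy. Angiopoietins act on another receptor, encoded by Tek (TIE2). Angpt1 activates it and stabilises vessels, whereas Angpt2 is the context-dependent antagonist that endothelial cells release when vessels are remodelled. Notch signalling, with Dll4 as ligand, restrains sprouting. Capillary endothelium of the heart carries genes for lipid uptake, such as Gpihbp1, the anchor of lipoprotein lipase.

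Gene levels are given as CPM, counts scaled to a common library total after correction for library composition, and differences as log2 fold changes with standard errors (SE) from edgeR's quasi-likelihood fit of all 18 libraries. A gene was called where its p-value, adjusted over all 16270 genes by the Benjamini-Hochberg method, was under 0.05. Libraries held 15383566 to 20908363 counts, and the log2 CPM of libraries of the same group correlated with Pearson's r of 0.9707 to 0.9879. The study describes 4 to 5 hearts for each treatment group, and each group here holds 4 or 5 libraries. The labels do not tie a library to a named animal, so p-values measure the spread between these libraries. Gnaq, the transgene's gene, was 45.4 to 230 CPM in WT libraries, 1640 to 11700 CPM in Gαq CD (mean 7470) and 2230 to 5200 CPM in Gαq ERTU (mean 3210), with reads from the transgene and the endogenous gene counted together. The part of the transgene level in the comparisons of diets within Gαq, or of genotypes between diets, was not tested. Cardiomyocyte markers summed to 75380 to 114700 CPM in single libraries, fat markers to 1.67 to 53.7 CPM and atrial markers to 24.0 to 765 CPM.

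Per kilobase of exon, the most abundant member over the 18 libraries was Vegfb, a ligand of Flt1, at 146 CPM per kb, followed by Cdh5 (VE-cadherin, the adhesion molecule of endothelial junctions) at 67.1, Eng (endoglin, a co-receptor for TGF-β family ligands) at 66.9, Vegfa at 53.9 and Pecam1 (CD31) at 48.2 CPM per kb. The lowest were Vegfc, a lymphatic growth factor, at 3.54, Apln, the ligand of the apelin receptor, at 3.46 and Angpt2 at 1.41 CPM per kb. Cdh5 and Eng lay closer together than the spread between libraries, as did Vegfc and Apln. The smallest count of any member in a library was 25, for Apln, and 31 of the 34 members had at least 100 counts in every library. The defining markers of endothelium were thus present in every LV library, with Pecam1 at 233 to 411 CPM and Cdh5 at 181 to 378 CPM.

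The comparison of Gαq with WT, with diet in the model, called 6 of the 34 members, all lower in Gαq. They were Angpt1, Vegfb, Cdh5, Esam, Tie1 and Notch4. Library Gαq CD 8 was the lowest of the 18 for Vegfb, Cdh5, Esam, Tie1 and Notch4. It also had the highest sums of atrial (765 CPM), fibroblast (4386 CPM) and macrophage markers (670 CPM). Without that library Tie1 and Notch4 were no longer called by genotype (adjusted p = 0.0718 and 0.0847, edgeR). Angpt1, Vegfb, Cdh5 and Esam still were, and the part of that library's cell composition was not tested. Over all genes tested, 19.6% were called in this comparison, 9.92% lower and 9.72% higher, so the 17.6% of members called was no larger a share than among genes at large, and the difference in direction was not tested. The median log2 fold change was -0.168 over the members and 0.00377 over all genes, and 29 of the 34 members had a negative value. In whole LV tissue, fewer of the cells that make a member, endothelial or not, and less of its RNA per cell cannot be told apart. Among other cell types, 6 of 8 fibroblast markers rose (75%), and of 10 cardiomyocyte markers 4 fell and 1 rose (50%). Among 9 pericyte and smooth muscle markers, 2 fell and 1 rose (33.3%). Called higher were 1 of 6 endocardial (Plvap, 16.7%), 1 of 8 macrophage (Fcgr1, 12.5%) and 1 of 4 lymphocyte markers (Cd79b, 25%). These last shares stand beside 19.6% of all genes called and 9.72% called higher. For red blood cell, fat and atrial markers, 0 of 4 tested were called in each list.

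RefSeq promoter windows of GRCm38.p6, here the 250 bases before each annotated start, were matched by symbol for 21 of the 34 members (27 windows). ETS factors, among them Erg and Fli1, bind DNA at a GGAA core and many endothelial genes carry such sites near their starts. The letters AGGAAG, searched on both strands (AGGAAG or CTTCCT), were present in 11 of the 27 windows, those of 10 members, and in 29.5% of all 32851 windows. Of the called members with a window, Vegfb had no match, Tie1 had 1 and Notch4 had 3. The windows of Vegfb and Notch4 are shown 5′ to 3′ in the direction of the gene, as called members of different classes that differ in this feature, with the matches in capitals. Vegfb (chr19:6987652-6987901, minus strand) had a GC content of 76.4% and Notch4 (chr17:34564045-34564294, plus strand) of 58.4%. The median was 52.4% over all windows and 61.6% over the 27 windows of members.
Vegfb: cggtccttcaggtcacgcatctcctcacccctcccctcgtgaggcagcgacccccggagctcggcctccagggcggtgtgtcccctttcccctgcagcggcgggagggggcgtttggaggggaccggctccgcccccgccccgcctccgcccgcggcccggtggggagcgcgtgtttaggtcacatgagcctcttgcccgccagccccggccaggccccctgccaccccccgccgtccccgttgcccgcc
Notch4: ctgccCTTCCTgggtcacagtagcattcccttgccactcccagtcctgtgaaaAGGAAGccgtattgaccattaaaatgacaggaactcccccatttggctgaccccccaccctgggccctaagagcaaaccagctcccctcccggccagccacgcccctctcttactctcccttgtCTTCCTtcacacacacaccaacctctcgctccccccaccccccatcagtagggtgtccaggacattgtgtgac
A match describes letters in a window and not a bound site. The last 27 bases of the Notch4 window lie inside the gene as GENCODE M21 annotates it. For Tie1 this holds for 212 of the 250 bases, so its matches are in a window mostly inside the annotated gene. The SOX letters ACAAAG or CTTTGT were in 5 of the 27 windows and in 16.5% of all windows, and the RBPJ letters GTGGGAA or TTCCCAC, which are in neither printed sequence, were in those of Kdr and Tie1 and in 5.42% of all windows. The hypoxia response letters ACGTG or CACGT were in the window of Vegfa alone among the members and in 16.6% of all windows.

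The ligand Angpt1 (ENSMUSG00000022309, chr15:42424723-42676977, minus strand on GRCm38) had the log2 fold change of largest size among the 34 members by genotype with diet in the model. Angpt1 read 30.4, 46.3, 34.1 and 33.2 CPM in WT CD, 27.6, 45.1, 48.2, 55.5 and 35.2 CPM in WT ERTU, 10.6, 7.59, 12.9, 11.9 and 20.5 CPM in Gαq CD and 13.3, 12.4, 19.6 and 20.4 CPM in Gαq ERTU. Every one of the 9 Gαq libraries lay below every one of the 9 WT libraries, which held for 1 of the 34 members and for 1.82% of all genes tested. Group means were 36.0 ± 7.03 CPM in WT CD (SD, n = 4), 42.3 ± 11 CPM in WT ERTU (SD, n = 5), 12.7 ± 4.78 CPM in Gαq CD (SD, n = 5) and 16.4 ± 4.19 CPM in Gαq ERTU (SD, n = 4). The log2 fold change by genotype was -1.43 ± 0.17 (SE), a fall of 63.0%, with an adjusted p of 3.27e-06 by edgeR. It was -1.50 ± 0.24 on CD (adjusted p = 0.000429, edgeR) and -1.37 ± 0.25 on ERTU (adjusted p = 0.00137, edgeR). The antisense gene Gm17473 overlaps 737 bases of Angpt1 exons and averaged 0.759 CPM over the libraries.

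**Figure D1:**
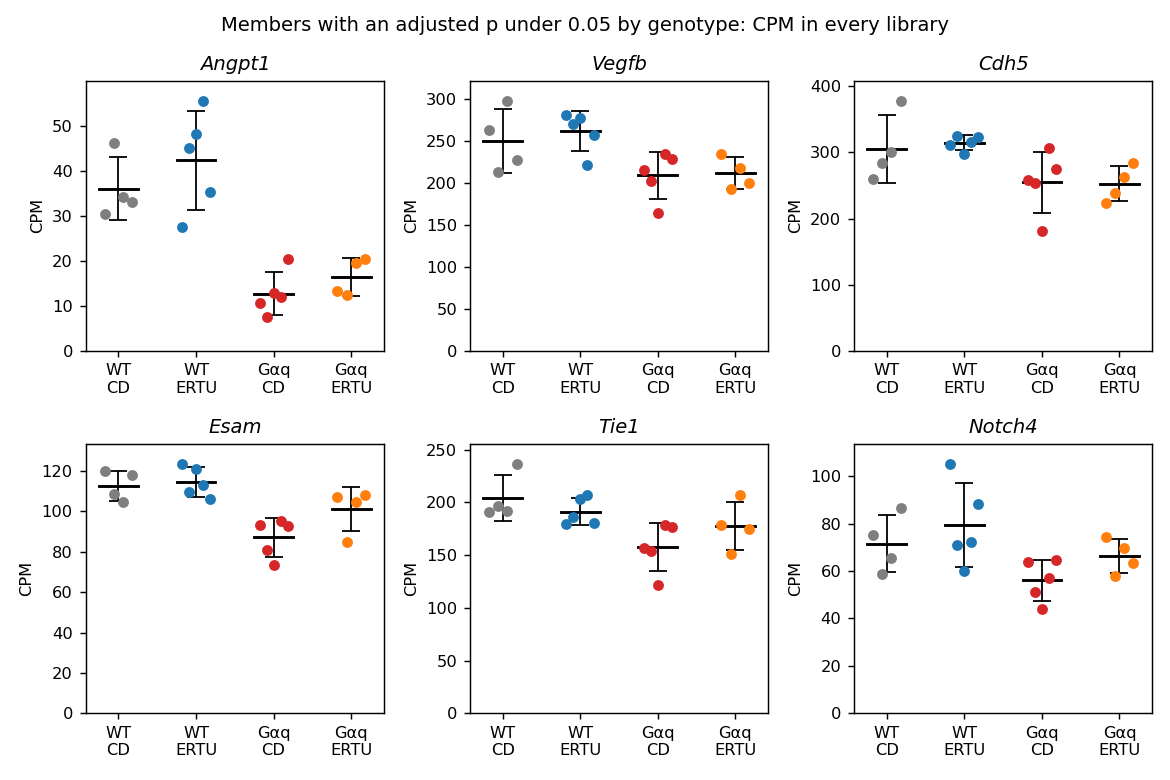
CPM in every library of the 6 members called by genotype, by genotype and diet. Points are libraries, horizontal lines are group means and bars are ± 1 SD, with each axis starting at 0; Angpt1 is the panel in which no Gαq library reaches the WT libraries, while the other 5 panels overlap.

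Angpt1 is made by cells outside the endothelium, including perivascular cells. Of 9 pericyte and smooth muscle markers, Cspg4 rose by genotype (log2 fold change 0.50 ± 0.12) and Abcc9 (-0.53 ± 0.12) and Rgs5 (-0.24 ± 0.065) fell, with adjusted p of 0.00417, 0.00304 and 0.0102 by edgeR. The summed level of the 9 markers was 1991 to 2035 CPM in WT CD, 1833 to 2179 in WT ERTU, 1464 to 1796 in Gαq CD and 1415 to 2042 in Gαq ERTU, and none of them was at 0. Of 8 fibroblast markers, 6 rose by genotype (median log2 fold change 0.612), with summed levels of 1657 to 3146 CPM in WT CD, 1541 to 2882 in WT ERTU, 3010 to 4386 in Gαq CD and 2895 to 3569 in Gαq ERTU. Of 10 cardiomyocyte markers, 4 fell and 1 rose by genotype (median log2 fold change -0.0883). The part of these 3 lists of cell types, or of others, in the difference in Angpt1 was not tested.

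The receptors of the angiopoietin system differed less than the ligand. Tek had a log2 fold change of -0.18 ± 0.082 by genotype (adjusted p = 0.133, edgeR) over a range of 90.8 to 148 CPM. Tie1, the orphan receptor that partners with TIE2, (ENSMUSG00000033191, chr4:118471191-118490061, minus strand) was called. Tie1 read 190, 197, 192 and 237 CPM in WT CD, 180, 186, 203, 207 and 181 CPM in WT ERTU, 156, 154, 122, 178 and 177 CPM in Gαq CD and 178, 151, 207 and 175 CPM in Gαq ERTU. All 5 Gαq CD libraries were below all 4 WT CD libraries, whereas the Gαq ERTU libraries overlapped the WT ERTU libraries. Tie1 fell by genotype with a log2 fold change of -0.24 ± 0.083 (adjusted p = 0.0475, edgeR) and on CD with -0.37 ± 0.11 (adjusted p = 0.0475, edgeR), and had a log2 fold change of -0.11 ± 0.11 on ERTU (adjusted p = 0.648). The call by genotype held in 10 of 26 alternative analyses and the call on CD in 8 of 26, with adjusted p-values of 0.0501 with median-of-ratios size factors, 0.0989 with only the 2 groups compared and up to 0.145 (without WT CD library 5). The call by genotype was lost when library WT CD 5, the highest, was left out (-0.193, adjusted p = 0.0987). Angpt2 read 2.54, 5.24, 8.33 and 5.65 CPM in WT CD, 2.46, 5.85, 4.71, 3.93 and 6.57 CPM in WT ERTU, 4.42, 7.35, 6.95, 3.39 and 6.09 CPM in Gαq CD and 3.17, 6.20, 5.02 and 5.65 CPM in Gαq ERTU. Genotypes overlapped on both diets for this antagonist, which had a log2 fold change of 0.079 ± 0.21 by genotype (adjusted p = 0.841, edgeR).

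The balance of Angpt2 to Angpt1, taken as the difference of their log2 CPM in each library, was -3.53, -3.12, -2.02 and -2.53 in WT CD, -3.43, -2.92, -3.33, -3.78 and -2.40 in WT ERTU, -1.24, -0.046, -0.88, -1.78 and -1.73 in Gαq CD and -2.03, -0.98, -1.94 and -1.84 in Gαq ERTU. Each Gαq group lay above the WT group on its own diet: the lowest Gαq CD library was at -1.78 and the highest WT CD library at -2.02, and the lowest Gαq ERTU library was at -2.03 and the highest WT ERTU library at -2.40. The ratio was higher in Gαq by 1.57 on the log2 scale, 1.67 on CD and 1.48 on ERTU (two-sided exact permutation test over 15876 splits within diet, p = 0.000126, adjusted p = 0.00252 over 20 tests of 10 ratios by genotype and by diet). By diet the same ratio differed by -0.468 (exact p = 0.114, adjusted p = 0.326). The pairs taken as ratios were chosen with earlier results of these data known, which the adjustment does not cover. Angpt1 was called on its own and Angpt2 was not, so the ratio is not support separate from the Angpt1 result.

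Among the VEGF ligands, Vegfb, which signals through Flt1 and is abundant in heart muscle, was called (ENSMUSG00000024962, chr19:6982473-6987651, minus strand). Vegfb read 264, 213, 298 and 227 CPM in WT CD, 281, 271, 278, 222 and 257 CPM in WT ERTU, 216, 202, 165, 235 and 228 CPM in Gαq CD and 235, 193, 219 and 200 CPM in Gαq ERTU. The Gαq libraries lay in the lower part of the WT range or below it on both diets, and the genotypes overlapped. Vegfb fell by 17.8% by genotype (log2 fold change -0.28 ± 0.081, adjusted p = 0.0159, edgeR), with -0.26 ± 0.12 on CD and -0.31 ± 0.12 on ERTU, neither called (adjusted p = 0.201 and 0.123). The call by genotype held in all 26 alternative analyses. Cardiomyocyte markers, of which Ryr2, Myl3, Myh6 and Tnni3 fell and Mybpc3 rose by genotype, summed to 82110 to 114700 CPM in WT CD, 75380 to 110600 in WT ERTU, 77740 to 102200 in Gαq CD and 76760 to 104900 in Gαq ERTU, and their part in the Vegfb result was not tested.

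Vegfa, the principal ligand of Kdr, varied widely within groups. Vegfa read 212, 277, 322 and 167 CPM in WT CD, 221, 271, 195, 155 and 352 CPM in WT ERTU, 214, 310, 249, 284 and 166 CPM in Gαq CD and 156, 290, 162 and 157 CPM in Gαq ERTU. Library 17 stood apart in Gαq ERTU at 290 CPM, against 156 to 162 CPM in the other 3. Vegfa had a log2 fold change of -0.16 ± 0.17 by genotype (adjusted p = 0.574, edgeR) and -0.36 ± 0.25 for ERTU in Gαq (adjusted p = 0.696). Vegfc ranged from 4.85 to 12.5 CPM and had a log2 fold change of -0.18 ± 0.14 by genotype (adjusted p = 0.425).

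None of the VEGF receptors and co-receptors was called by genotype. Kdr (VEGFR2), with a range of 171 to 395 CPM, had a log2 fold change of -0.076 ± 0.17 on CD and -0.45 ± 0.17 on ERTU (adjusted p = 0.856 and 0.123, edgeR). Flt1 (VEGFR1) had a log2 fold change of -0.26 ± 0.11 by genotype over 169 to 304 CPM (adjusted p = 0.113), and the co-receptors Nrp1 and Nrp2 had log2 fold changes of -0.14 ± 0.15 and -0.12 ± 0.19 (adjusted p = 0.544 and 0.727). The log2 ratios of Vegfa to Kdr, Vegfb to Flt1 and Flt1 to Kdr differed by genotype by 0.113, -0.0345 and 0.0185, with exact permutation p-values of 0.347, 0.793 and 0.93. None of the 3 differences was larger than the spread between libraries by this test.

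**Figure D2:**
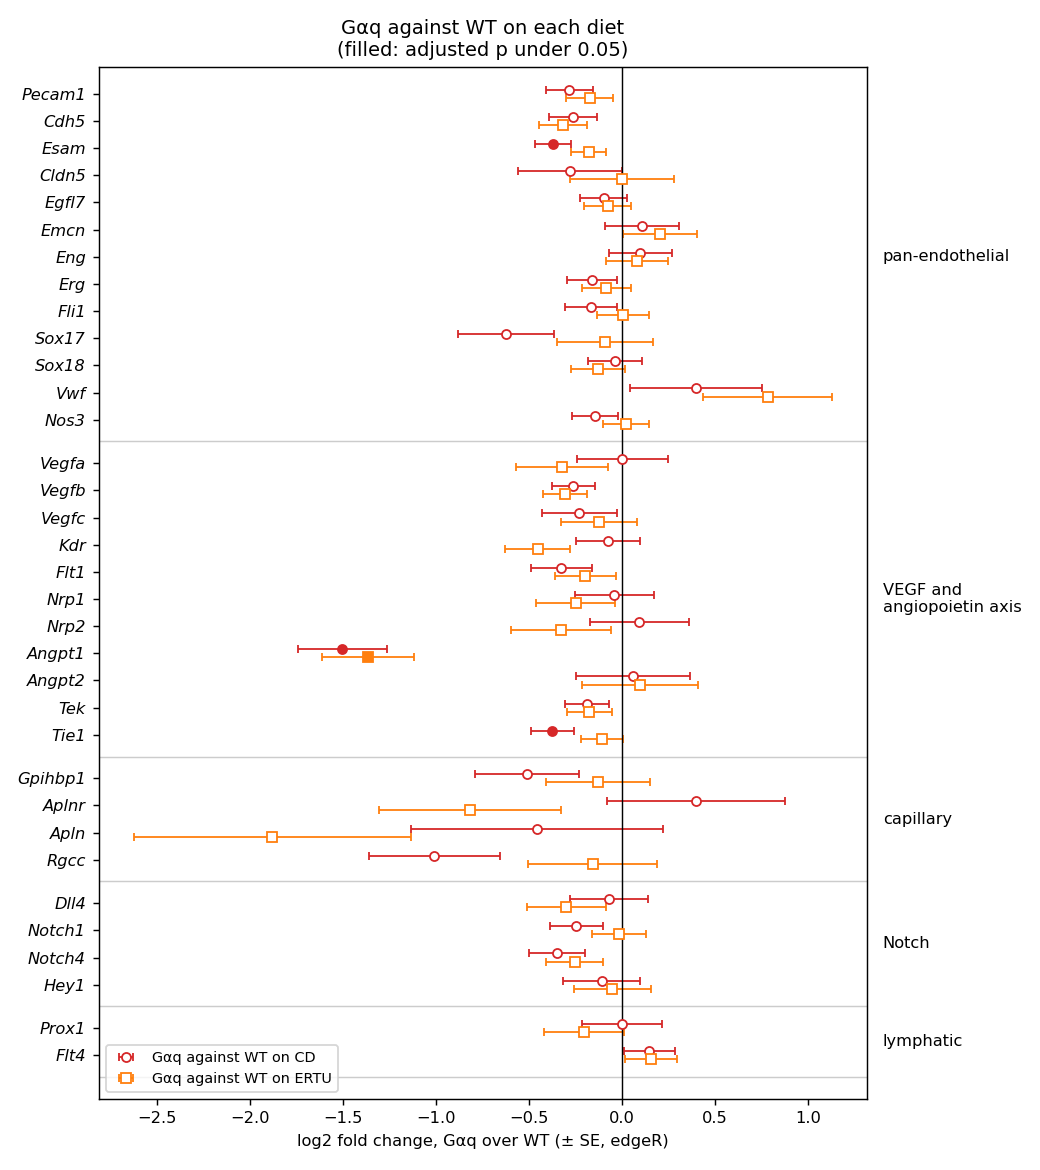
Log2 fold change of Gαq over WT with its SE for each of the 34 members by class, on CD (red circles) and on ERTU (orange squares), from edgeR; filled symbols have an adjusted p under 0.05. Angpt1 lies at -1.50 and -1.37, far from the other filled points (Esam at -0.37 and Tie1 at -0.37 on CD), and Apln and Aplnr carry the widest errors.

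Of the 13 pan-endothelial members, 2 were called, namely the junction genes Cdh5 and Esam. Cdh5 (ENSMUSG00000031871, chr8:104101625-104144511, plus strand) encodes the cadherin of endothelial adherens junctions. Cdh5 read 259, 284, 300 and 378 CPM in WT CD, 312, 325, 298, 316 and 324 CPM in WT ERTU, 258, 253, 181, 307 and 275 CPM in Gαq CD and 224, 239, 263 and 285 CPM in Gαq ERTU. All 4 Gαq ERTU libraries were below all 5 WT ERTU libraries, and the CD groups overlapped. Cdh5 fell by 18.2% by genotype (log2 fold change -0.29 ± 0.089, adjusted p = 0.0252, edgeR). The call was lost with library totals as the only scaling (-0.24, adjusted p = 0.085), without WT CD library 5 (adjusted p = 0.0591) and without Gαq ERTU library 16 (adjusted p = 0.052).

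Esam (ENSMUSG00000001946, chr9:37528078-37538319, plus strand) encodes an adhesion molecule of endothelial tight junctions. Esam read 120, 108, 105 and 118 CPM in WT CD, 124, 110, 121, 113 and 106 CPM in WT ERTU, 93.4, 80.8, 73.2, 95.3 and 92.6 CPM in Gαq CD and 107, 84.6, 105 and 108 CPM in Gαq ERTU. On CD every Gαq library was below every WT library, and on ERTU library 17 was the lowest of the Gαq libraries and the other 3 fell within or next to the WT range. Esam fell by genotype with a log2 fold change of -0.28 ± 0.069 (adjusted p = 0.00686, edgeR) and on CD with -0.37 ± 0.10 (adjusted p = 0.0192, edgeR), and had a log2 fold change of -0.18 ± 0.10 on ERTU (adjusted p = 0.295). The call on CD was lost in 4 of 26 alternative analyses, with adjusted p-values of 0.0509 with library totals only, 0.0758 without WT CD library 1, 0.0542 without Gαq CD library 7 and 0.0537 without Gαq CD library 8. The difference between the diets was itself not called (interaction 0.19 ± 0.14, adjusted p = 1.00).

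The other 11 pan-endothelial members were not called. Eng, next to Cdh5 in abundance per kilobase, showed no order between the groups. Eng read 236, 193, 253 and 331 CPM in WT CD, 287, 252, 272, 287 and 259 CPM in WT ERTU, 203, 251, 312, 249 and 342 CPM in Gαq CD and 272, 207, 368 and 304 CPM in Gαq ERTU. The highest libraries were WT CD 5, Gαq CD 8 and 10 and Gαq ERTU 18 and 20, and the genotypes overlapped on both diets. Its log2 fold change by genotype was 0.091 ± 0.12 (adjusted p = 0.634, edgeR). Pecam1 had a log2 fold change of -0.23 ± 0.088 (adjusted p = 0.0737), and the tight junction gene Cldn5 had a log2 fold change of -0.14 ± 0.19 (adjusted p = 0.675). The transcription factors Erg, Fli1, Sox17 and Sox18 had log2 fold changes by genotype of -0.12 ± 0.092, -0.078 ± 0.10, -0.35 ± 0.19 and -0.083 ± 0.10, and Nos3 (endothelial nitric oxide synthase), Egfl7 and Emcn (endomucin) had values of -0.06 ± 0.087, -0.087 ± 0.088 and 0.16 ± 0.14. Their adjusted p-values by edgeR were between 0.2 and 0.69 for all 7. Exons of Egfl7 overlap those of the antisense gene Agpat2, which averaged 49.4 CPM.

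Vwf, the von Willebrand factor of larger vessels and endocardium, was the member with the largest positive value by genotype, 0.59 ± 0.24, and was not called (adjusted p = 0.0973, edgeR). It was called by genotype in 2 of the alternative analyses, with limma voom and sample quality weights (0.713, adjusted p = 0.0296) and without WT CD library 5 (0.783, adjusted p = 0.0208). Vwf read 184, 147, 142 and 350 CPM in WT CD, 197, 182, 161, 235 and 96.9 CPM in WT ERTU, 155, 233, 276, 188 and 503 CPM in Gαq CD and 260, 181, 512 and 247 CPM in Gαq ERTU. The highest values were in WT CD library 5, Gαq CD library 10 and Gαq ERTU library 18, and the genotypes overlapped on both diets. Pecam1 read 291, 279, 321 and 402 CPM in WT CD, 325, 283, 304, 411 and 305 CPM in WT ERTU, 233, 266, 285, 263 and 281 CPM in Gαq CD and 279, 238, 328 and 311 CPM in Gαq ERTU, and its genotypes also overlapped on both diets. Set against Pecam1 within each library, the log2 ratio of Vwf was -0.66, -0.93, -1.17 and -0.20 in WT CD, -0.72, -0.64, -0.92, -0.81 and -1.65 in WT ERTU, -0.59, -0.19, -0.047, -0.48 and 0.84 in Gαq CD and -0.10, -0.39, 0.64 and -0.33 in Gαq ERTU. The genotypes overlapped on CD and were apart on ERTU. It was higher in Gαq by 0.775, 0.647 on CD and 0.903 on ERTU (two-sided exact permutation test within diet, p = 0.00126, adjusted p = 0.0126). With the mean of all pan-endothelial members in place of Pecam1 the difference was 0.624 (adjusted p = 0.0575, same test). That mean holds Vwf itself, which makes the difference smaller than a mean without Vwf would. Without WT CD library 4 the difference to Pecam1 was 0.703 (adjusted p = 0.0524, same test). Of 6 endocardial markers, a list that holds Vwf and Emcn, only Plvap was called by genotype, and rose (0.72 ± 0.24, adjusted p = 0.0367, edgeR). Npr3, Nfatc1 and Cytl1 were not called. The summed level was 280 to 610 CPM in WT CD, 242 to 526 in WT ERTU, 300 to 762 in Gαq CD and 361 to 878 in Gαq ERTU, and none of the 6 was at 0. Vwf itself was a large part of that sum, with means of 206 of 393 CPM in WT CD, 174 of 370 in WT ERTU, 271 of 482 in Gαq CD and 300 of 566 in Gαq ERTU. The sum is thus not separate from the Vwf values. The part of endocardium in the ratio was not tested.

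None of the 4 capillary members was called in any comparison. Gpihbp1, which holds lipoprotein lipase at the capillary wall, had its lowest value in Gαq CD. Gpihbp1 read 150, 106, 68.7 and 135 CPM in WT CD, 190, 120, 147, 168 and 85.4 CPM in WT ERTU, 100, 49.6, 68.7, 62.5 and 122 CPM in Gαq CD and 153, 76.1, 131 and 160 CPM in Gαq ERTU. It had a log2 fold change of -0.51 ± 0.28 for Gαq on CD (adjusted p = 0.316, edgeR) and 0.50 ± 0.20 for ERTU with genotype in the model (adjusted p = 0.639). Rgcc, a regulator of the cell cycle that marks heart capillaries, was also lowest in a Gαq CD library. Rgcc read 70.4, 54.4, 27.9 and 52.9 CPM in WT CD, 84.7, 33.9, 55.5, 61.8 and 26.8 CPM in WT ERTU, 41.6, 18.9, 16.9, 19.5 and 31.2 CPM in Gαq CD and 60.1, 20.9, 54.6 and 52.9 CPM in Gαq ERTU. Genotypes overlapped on both diets. It had a log2 fold change of -1.01 ± 0.35 for Gαq on CD, with an adjusted p of 0.0856 by edgeR and of 0.0387 without the filter on low counts, 0.0433 by limma voom, 0.044 without WT CD library 4 and 0.0342 without Gαq CD library 6.

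The apelin receptor Aplnr and its ligand Apln, genes of sprouting endothelium, showed a wide spread within every group. Aplnr read 23.2, 72.4, 84.0 and 44.3 CPM in WT CD, 13.5, 46.7, 43.1, 24.9 and 103 CPM in WT ERTU, 36.1, 117, 53.4, 121 and 41.6 CPM in Gαq CD and 23.3, 37.8, 18.5 and 25.1 CPM in Gαq ERTU. Apln read 6.97, 9.56, 33.0 and 8.91 CPM in WT CD, 2.28, 13.1, 12.1, 3.72 and 38.5 CPM in WT ERTU, 5.34, 16.4, 6.95, 21.4 and 3.23 CPM in Gαq CD and 1.52, 6.31, 1.75 and 5.28 CPM in Gαq ERTU. Within its own group, Apln was highest in WT CD library 4, WT ERTU library 15, Gαq CD library 9 and Gαq ERTU library 17. The log2 fold change by genotype was -0.20 ± 0.37 for Aplnr and -1.13 ± 0.53 for Apln (adjusted p = 0.760 and 0.145, edgeR). On ERTU alone Apln had the lowest log2 fold change of the members, -1.88 ± 0.75, and was not called (adjusted p = 0.135, edgeR). The log2 ratio of Apln to Aplnr was -1.72, -2.91, -1.35 and -2.30 in WT CD, -2.52, -1.82, -1.83, -2.71 and -1.41 in WT ERTU, -2.73, -2.82, -2.92, -2.49 and -3.64 in Gαq CD and -3.84, -2.56, -3.32 and -2.22 in Gαq ERTU, lower in Gαq by 0.893 (two-sided exact permutation test within diet, p = 0.00548, adjusted p = 0.0365), with 0.855 on CD and 0.931 on ERTU. This call was lost without any 1 of 11 of the 18 libraries, with adjusted p-values of up to 0.0879 (without Gαq ERTU library 16).

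**Figure D3:**
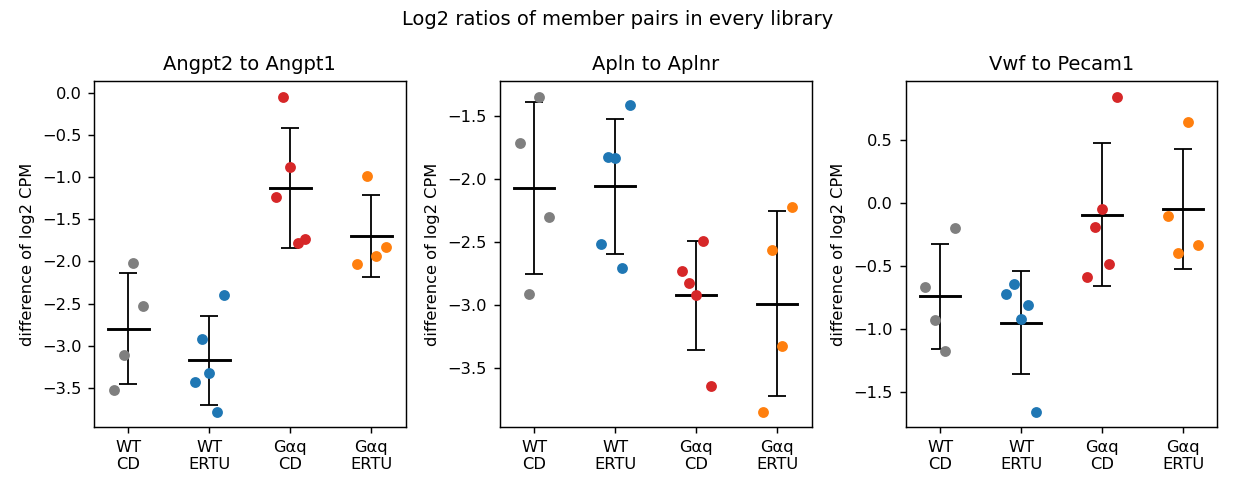
Log2 ratios (differences of log2 CPM) of Angpt2 to Angpt1, Apln to Aplnr and Vwf to Pecam1 in every library, by group. Points are libraries, lines group means and bars ± 1 SD. The Angpt2 to Angpt1 panel separates the genotypes on each diet, the Vwf to Pecam1 panel separates them on ERTU, and in the Apln to Aplnr panel they overlap on both diets.

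In the Notch class, 1 of 4 members was called. The receptor gene Notch4 (ENSMUSG00000015468, chr17:34564268-34588503, plus strand) is expressed mainly in endothelium. Notch4 read 75.1, 58.9, 65.5 and 86.4 CPM in WT CD, 105, 70.9, 59.9, 72.3 and 88.1 CPM in WT ERTU, 63.6, 51.3, 44.1, 57.2 and 64.7 CPM in Gαq CD and 74.3, 58.1, 69.9 and 63.6 CPM in Gαq ERTU. Genotypes overlapped on both diets. Notch4 fell by 18.8% by genotype (-0.30 ± 0.11, adjusted p = 0.0490, edgeR), a call that held in 9 of 26 alternative analyses. Dll4, the endothelial ligand, was the most abundant of the class per kilobase. Dll4 read 27.5, 40.1, 59.2 and 38.3 CPM in WT CD, 23.7, 44.4, 42.5, 32.1 and 51.4 CPM in WT ERTU, 29.9, 44.4, 33.1, 50.6 and 39.1 CPM in Gαq CD and 31.2, 31.9, 34.8 and 28.3 CPM in Gαq ERTU. It had a log2 fold change of -0.18 ± 0.15 by genotype (adjusted p = 0.435), and Notch1 and the target gene Hey1 had log2 fold changes of -0.13 ± 0.10 and -0.08 ± 0.14 (adjusted p = 0.422 and 0.749, edgeR).

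The lymphatic members were not called. Prox1 is the transcription factor of lymphatic identity and is also made by heart muscle cells. Prox1 read 58.9, 91.8, 98.6 and 88.4 CPM in WT CD, 55.8, 105, 75.9, 62.1 and 103 CPM in WT ERTU, 93.6, 93.0, 69.2, 103 and 64.4 CPM in Gαq CD and 50.7, 98.9, 69.4 and 60.1 CPM in Gαq ERTU. Flt4 (VEGFR3) is the receptor of Vegfc. Flt4 read 33.7, 28.4, 32.4 and 47.2 CPM in WT CD, 33.5, 30, 27.5, 34.9 and 36.6 CPM in WT ERTU, 30.7, 39.0, 38.8, 43.2 and 44.5 CPM in Gαq CD and 34.8, 33.4, 42.1 and 34.6 CPM in Gαq ERTU. Prox1 overlapped between all groups and had a log2 fold change of -0.10 ± 0.15 by genotype, and Flt4 had a log2 fold change of 0.15 ± 0.095 (adjusted p = 0.699 and 0.287, edgeR). The log2 ratio of Vegfc to Flt4 was lower in Gαq by 0.329, not past the threshold (exact permutation p = 0.0522, adjusted p = 0.23).

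Taken separately by diet, Gαq against WT called 3 members on CD (Angpt1, Esam and Tie1) and 1 on ERTU (Angpt1), all lower, beside 8.1% and 8.17% of all genes tested (4.1% and 4.24% lower). The members called were 8.82% on CD and 2.94% on ERTU. The same 3 members on CD, and Angpt1 and Cdh5 on ERTU, had libraries that did not overlap between genotypes, beside 9.29% and 10.9% of all genes (4.6% and 5.48% lower). Counted in either direction, both shares of members, 3 of 34 and 2 of 34, were below that background, and counted as lower they were above it, a difference that was not tested. The 2 comparisons set different libraries against each other but share 1 estimate of the spread from all 18 libraries. For example, Tie1 was no longer called on CD without WT ERTU library 12 (adjusted p = 0.061, edgeR). No member was called for the difference between the 2 comparisons.

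For ERTU against CD, no member was called by edgeR with genotype in the model, in WT or in Gαq, and none in any of the alternative fits, DESeq2 included. Over all genes the background was 0% for diet with genotype in the model, 0% for ERTU in WT and 0.00615% for ERTU in Gαq, and 0% for the genotype by diet interaction. At an unadjusted p under 0.05 there were 4 members with genotype in the model, 0 in WT and 7 in Gαq, beside 7.7%, 2.24% and 7.62% of all genes, and 0 members for the interaction beside 1.92%. DESeq2 called 2 genes of all for diet (0.0065%), 0 in WT, 4 in Gαq (0.013%) and 0 for the interaction. No member had ERTU and CD libraries without overlap in either genotype, beside 0.762% of all genes in WT and 1.6% in Gαq.

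The 7 members at an unadjusted p under 0.05 for ERTU in Gαq were Aplnr (-1.50 ± 0.50), Sox17 (0.69 ± 0.26), Rgcc (0.88 ± 0.35), Gpihbp1 (0.69 ± 0.28), Esam (0.22 ± 0.10), Cldn5 (0.59 ± 0.28) and Nos3 (0.26 ± 0.12). Their adjusted p-values by edgeR were 0.653 to 0.655. In WT the corresponding values were -0.28 ± 0.48 for Aplnr, 0.033 ± 0.35 for Rgcc and 0.31 ± 0.28 for Gpihbp1. Angpt1 had a log2 fold change of 0.23 ± 0.24 in WT and 0.37 ± 0.24 in Gαq for ERTU against CD, small beside its difference between genotypes.

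Part of the members varied together within groups. The log2 CPM of each member was centred on its group mean, and the 561 pairs of members were correlated over the 18 libraries, with p-values from 100000 permutations of libraries within groups, whose smallest possible p is 1e-05, adjusted over the pairs. These relations were computed after the data had been seen. Of the 561 pairs, 64 were positively and 25 negatively correlated at an adjusted p under 0.05, together 15.9%. The share among pairs of other genes was not computed, so the counts do not set these members apart from genes at large. The points of a pair share the same libraries and depth.

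One set of members that varied together held Aplnr, Apln, Nrp2, Nrp1, Kdr, Vegfa, Dll4 and Prox1, a set chosen from these correlations, and 25 of its 28 pairs passed the threshold (r from 0.505 to 0.938 over the 28). Nrp2 and Aplnr had r = 0.938 and rho = 0.946 (permutation p = 2e-05 and 1e-05, adjusted p = 0.00187 and 0.00112), and r = 0.904 without the 2 libraries farthest from the median of Nrp2. Aplnr and its ligand Apln had r = 0.902 and rho = 0.886 (permutation p = 2e-05 and 1e-05, adjusted p = 0.00187 and 0.00112, r = 0.838 without 2 libraries). Kdr and Nrp2 had r = 0.896 and rho = 0.911 (permutation p = 3e-05 and 1e-05, adjusted p = 0.0021 and 0.00112, r = 0.872 without 2 libraries). These are a receptor, its ligand, and the VEGF receptor with its co-receptor.

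The other set, also chosen from these correlations, held Gpihbp1, Rgcc and Sox17 and ran against the first. Between the sets 22 of 24 pairs were past the threshold, with r from -0.898 to -0.643. The choice itself raises the counts of pairs within and between the sets, so they are description and not a test. Some members left out of both sets were also correlated with them, such as Erg with Dll4 (r = 0.833) and Esam with Rgcc (r = 0.799). Gpihbp1 and Rgcc had r = 0.911 and rho = 0.924 (permutation p = 7e-05 and 5e-05, adjusted p = 0.00408 and 0.00312, r = 0.868 without 2 libraries). Gpihbp1 and Aplnr had r = -0.845 and rho = -0.876 (permutation p = 0.0001 and 0.00012, adjusted p = 0.00468 and 0.00518, r = -0.818 without 2 libraries). Gpihbp1 and Vegfa had r = -0.898 and rho = -0.792 (permutation p = 2e-05 and 0.00067, adjusted p = 0.00187 and 0.0109, r = -0.845 without 2 libraries). For example, WT CD library 4, WT ERTU library 15, Gαq CD libraries 7 and 9 and Gαq ERTU library 17 lay high for Aplnr and low for Gpihbp1 within their group. WT CD library 1, WT ERTU library 11 and Gαq CD libraries 6 and 10 lay the other way.

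**Figure D4:**
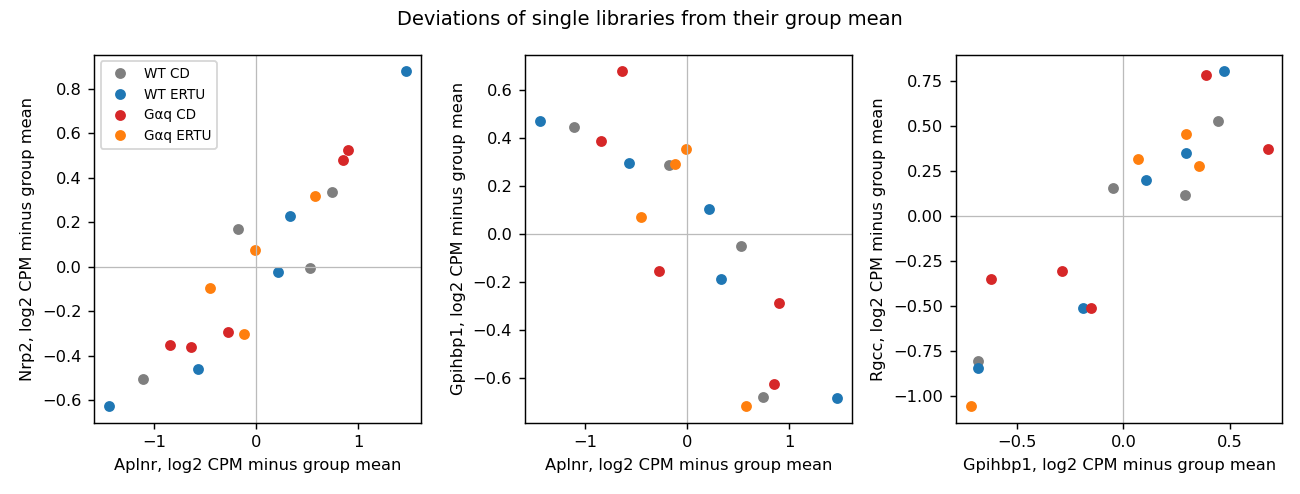
Deviation of each of the 18 libraries from its group mean (log2 CPM), coloured by group, for Nrp2 against Aplnr (r = 0.938), Gpihbp1 against Aplnr (r = -0.845) and Rgcc against Gpihbp1 (r = 0.911). Libraries of all 4 groups lie along each trend.

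The pan-endothelial genes did not follow this axis as a block. Their 78 pairs had a median r of 0.352, against 0.206 over all 561 pairs, and 11 of the 78 passed the threshold, the closest being Eng with Vwf (r = 0.838, rho = 0.721, permutation p = 0.00017 and 0.00313, adjusted p = 0.00502 and 0.0303) and Pecam1 with Eng (r = 0.829, rho = 0.889, permutation p = 1e-05 for both, adjusted p = 0.00187 and 0.00112). Without 2 libraries r was 0.792 and 0.903. Of the called members, Angpt1, Cdh5 and Vegfb had no partner past the threshold, Notch4 had 1, Tie1 had 2 and Esam had 4. Across the libraries Aplnr was compared with 9 marker sums and with total counts, and none of the 10 passed an adjusted p of 0.05. The strongest was with red blood cell markers (r = -0.665, rho = -0.645, permutation p = 0.00743 and 0.00731, adjusted p = 0.0743 and 0.0731, r = -0.475 without 2 libraries).

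**Figure D5:**
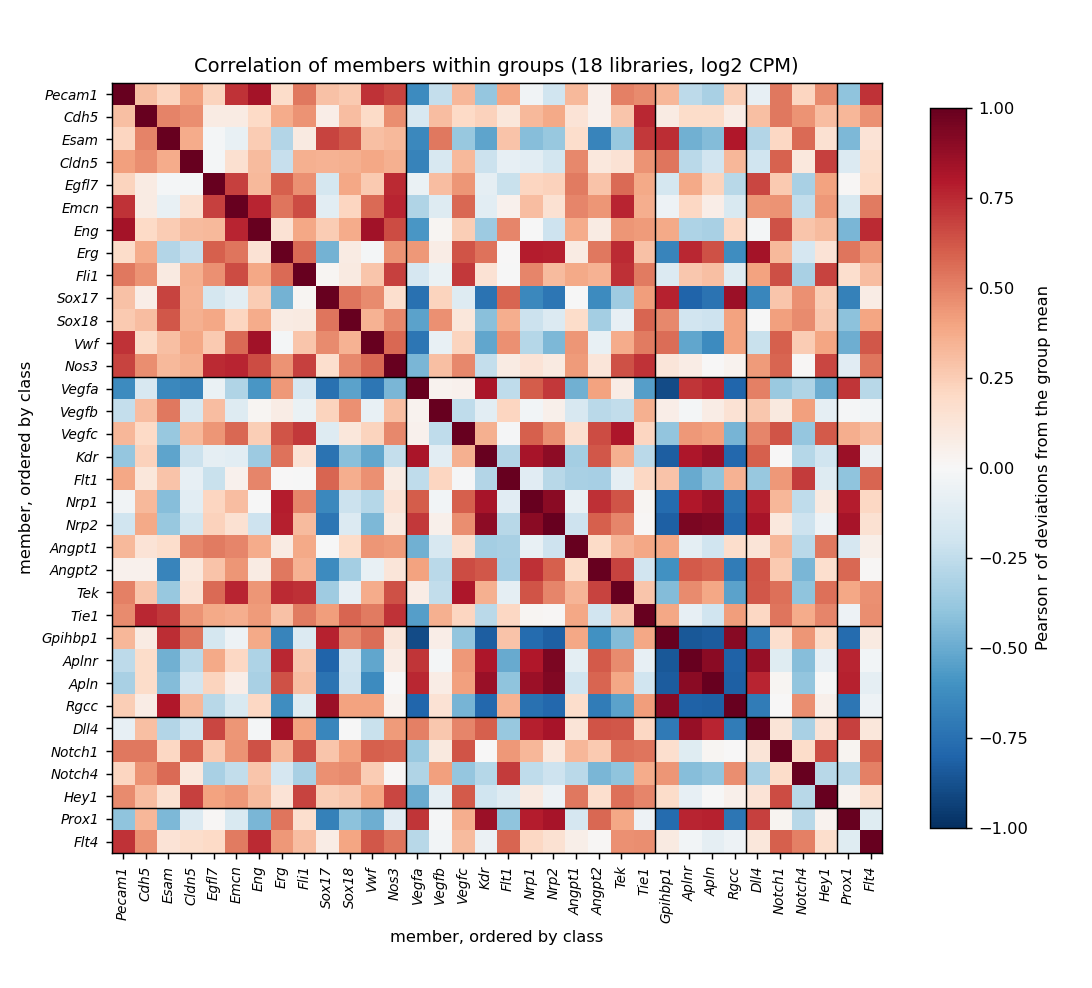
Pearson correlation of each pair of the 34 members over 18 libraries after centring on group means (log2 CPM), ordered by class with lines between classes; red is positive and blue negative. The capillary genes Gpihbp1 and Rgcc are blue against Vegfa, Kdr, Nrp1, Nrp2, Aplnr and Apln (for example r = -0.821 for Kdr and Gpihbp1).

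Related genes outside the list of 34 were read from 5 wider lists. Of the 69 tested, 9 rose and 11 fell by genotype (29%, beside 19.6% of all genes). Among 21 further endothelial genes 2 rose and 5 fell. Adgrf5 (-0.39 ± 0.10) and Adgrl4 (-0.32 ± 0.094), adhesion receptors, and Robo4 (-0.29 ± 0.067), a guidance receptor of endothelium, fell with adjusted p of 0.00592, 0.0176 and 0.00393 by edgeR. Procr, the protein C receptor, rose by 0.86 ± 0.25 and Plvap, a component of fenestrae, by 0.72 ± 0.24 (adjusted p = 0.0191 and 0.0367).

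Of 18 further genes of VEGF, angiopoietin and guidance signalling, 4 rose and 4 fell. Pgf (placental growth factor, a ligand of Flt1) fell (-0.81 ± 0.14, adjusted p = 0.000225, edgeR), as did the guidance ligand Sema3a (-0.81 ± 0.18, adjusted p = 0.00235) and Epas1, which encodes HIF-2α (-0.34 ± 0.085, adjusted p = 0.00678). Hif1a rose (0.55 ± 0.086, adjusted p = 9.39e-05, edgeR), as did the netrin receptor gene Unc5b (0.45 ± 0.14, adjusted p = 0.0274) and Vhl, whose product marks HIF proteins for degradation (0.20 ± 0.066, adjusted p = 0.0339).

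Of 9 further capillary genes for lipid transport and exchange, Lpl (lipoprotein lipase, the partner of Gpihbp1) and Cd36 (a fatty acid transporter) fell, by -0.59 ± 0.094 and -0.42 ± 0.13 (adjusted p = 9.96e-05 and 0.0281, edgeR). Both are also made by heart muscle cells. None of 16 further Notch and arteriovenous genes was called. Of 6 lymphatic genes tested, Pdpn (0.60 ± 0.14), Mmrn1 (0.71 ± 0.21) and Foxc2 (0.58 ± 0.20) rose (adjusted p = 0.00429, 0.0183 and 0.0465), while Lyve1, Reln and Sema3d were not called. No gene of the 5 lists was called for ERTU with genotype in the model.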

How the data were processed

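LV RNA was sequenced as poly(A)-selected, paired-end libraries of male mice. Per the labels and the study's methods, the authors aligned reads to mm10 with STAR 2.6.0c and made counts per Ensembl gene (build 100) from uniquely aligned proper pairs with featureCounts (Subread 1.6.2). The deposited counts are not normalized. The authors also deposited log2-scale variance-stabilized values made with DESeq2, whose version is 1.23.10 in the labels, and these served as an alternative only.

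The 18 count columns carry the group and a number, which gave each library its group, and 0 columns of values were left unused. Identifiers were matched to GENCODE M21 (GRCm38) symbols, positions and exon lengths for 55190 of 55450 (99.5%). Here edgeR 4.0.16 (R 4.3.3) was run with TMM scaling, filterByExpr and quasi-likelihood tests on all 18 libraries, with genotype plus diet for the overall effects and 1 mean per group for the others. The genes filtered out held 0.0906% of counts. For log2 CPM a prior count of 2 was added. The fit, the ratio test and the correlation were tested on simulated data with known answers. Limma 3.58.1 and DESeq2 1.42.0 gave alternatives, and the closing section gives their effect. Total counts of 15383566 to 20908363 per library limit the precision of the rarest members.

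The members, the wider and marker lists and the pairs taken as ratios were chosen with earlier results of these data known. All members were accounted for, single-library values were given for those called in any comparison, for the pair most abundant per kilobase in each class and for the members of ratios past the threshold, and of the wider lists up to 3 called genes per direction were named by smallest adjusted p. The values of single libraries for Apln, Aplnr and Vwf and the relations within groups were chosen after the data had been seen. The methods speak of counted pairs on the same strand without saying how counting used the strand, so antisense overlaps were given where the partner could add reads.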

Additional observations from a re-analysis of the deposited data

Results flagged for a closer look

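In each group, the highest and the lowest library was set against the nearest other library by its gap as a share of the group's range, for the 34 members in CPM and for 10 log2 ratios. Of 176 groups examined, 9 had a gap above Dixon's 95% critical value, and chance alone gives about 8.8. High libraries were Vegfa in Gαq ERTU library 17 (290 CPM against 156 to 162, gap 0.955 of the range), Apln in WT CD library 4 (33.0 against 6.97 to 9.56 CPM, gap 0.9), Flt1 in Gαq ERTU library 18 (263 against 177 to 187 CPM, gap 0.889), and Flt4 in the same library (42.1 against 33.4 to 34.8 CPM, gap 0.837). Cldn5, the tight junction gene, was high in WT CD library 5 (55.4 against 24.2 to 28.2 CPM, gap 0.87) and in Gαq ERTU library 20 (64.1 against 31.2 to 35.8 CPM, gap 0.861), and Tie1 was high in WT CD library 5 (237 against 190 to 197 CPM, gap 0.864). Low libraries were Esam in Gαq ERTU library 17 (84.6 against 105 to 108 CPM, gap 0.855) and the log2 ratio of Vwf to Pecam1 in WT ERTU library 15 (-1.65 against -0.921 to -0.639, gap 0.722). Without WT CD library 5, Tie1 was no longer called by genotype (adjusted p = 0.0987, edgeR). Without Gαq ERTU library 18, Flt1 was called (-0.337, adjusted p = 0.0361, edgeR).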

How the results depend on the processing

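The calls by genotype of Angpt1, Esam and Vegfb held under all 26 alternatives, and that of Esam on CD under 22. Angpt1 also held under all 26 on each diet. With library totals as the only scaling, 3 members were called by genotype in place of 6, and 1 on CD in place of 3. That scaling moved the median log2 fold change of all genes by 0.0516 by genotype. On ERTU, limma voom with sample quality weights called 4 members in place of 1, adding Vwf (0.993), Vegfb (-0.326) and Kdr (-0.546). Leaving out 1 library gave 4 to 6 members by genotype, 1 to 3 on CD (1 without WT CD 1, Gαq CD 7 or Gαq CD 8) and 1 to 2 on ERTU (2, with Kdr, without WT ERTU 14). Of ratios by genotype, 1 passed in place of 3 with the pan-endothelial mean in place of Pecam1 as denominator. Apln to Aplnr does not use Pecam1 and kept its difference of -0.893. Its adjusted p of 0.0548 (exact permutation test) there came from the adjustment over all ratios. Leaving out 1 library gave 1 to 4 ratios (1 without WT CD 4). Notch4 lost its call by genotype in 17 of 26 alternatives and Tie1 in 16, and Tie1 lost its call on CD in 18. By diet and for the interaction, every alternative gave 0 members, and 0 ratios passed. The causes of these shifts were not tested. Correlated pairs, with alternatives chosen after seeing the data, numbered 87 on the deposited values and 65 to 102 without 1 library, against 89. For single members and ratios that were called in any analysis, leaving out a library kept 300 of 360 values on the same side of the threshold and other settings kept 116 of 140, with 0 reversed. No paired analysis was possible because the numbers of the count columns run across the series and were not tied to the replicate numbers of the labels. Of counts of members in single libraries, 25 for Apln was the lowest.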
